A study of Mus musculus with 77 samples.

Results

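The miR-181 family was described in male mice after chronic social defeat, in which an intruder meets a new aggressive resident each day. Its members were taken as every row of the deposited miRNA tables whose name starts with mmu-miR-181, all arms and numbered copies included. That rule gave 8 of 788 rows for miRNAs bound to AGO2 in the BNST (bed nucleus of the stria terminalis), a forebrain region that regulates anxiety, and 3 of 299 rows for blood. Together they hold 4 mature miRNAs of the 5p arm (miR-181a, b, c and d) and 3 of the 3p arm.

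The BNST libraries came from AGO2 immunoprecipitates of pooled tissue, 3 mice a library, all of the C57BL/6Crl strain (B6), with 5 control, 5 resilient and 3 susceptible miRNA libraries. Blood libraries came from single mice of B6 (5 control, 5 resilient and 5 susceptible) and of DBA/2Crl (D2), an innately more anxious strain, with 5 control and 5 susceptible mice by the labels. D2 resilient mice were not analysed here. All mice were males of 8 weeks, and controls were housed with a neighbour across a divider but were not defeated. Defeated mice were called susceptible or resilient from their avoidance of an unfamiliar mouse, and tissue was taken 6 to 8 days after the last defeat, after a forced swim test. The groups of 2 D2 mice were ambiguous: ED4_1 is labelled control and its column ends as a susceptible mouse, and ED4_15 is the reverse. Both were left out unless stated, which left 4 D2 controls and 4 D2 susceptible mice.

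A miRNA guides AGO2 to transcripts that pair with its seed, bases 2 to 8 counted from the 5′ end, and lowers their translation or stability. The miR-181 family is known for tuning T cell receptor signalling, where it restrains phosphatases, for its part in haematopoiesis, and in neurons for regulation of synaptic proteins such as the AMPA receptor subunit GluA2. Each hairpin yields a 5p and a 3p arm, of which the 5p arm is usually the guide.

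The mature sequences (RefSeq) are shown because the family differs outside a seed that all 4 of its 5p miRNAs share. The seed stands in capitals, and every line reads 5′ to 3′.
mmu-miR-181a-5p: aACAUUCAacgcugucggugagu
mmu-miR-181b-5p: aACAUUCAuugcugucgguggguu
mmu-miR-181c-5p: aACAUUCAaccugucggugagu
mmu-miR-181d-5p: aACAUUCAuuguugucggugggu
mmu-miR-181a-1-3p: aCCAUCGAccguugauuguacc
mmu-miR-181b-1-3p: cUCACUGAacaaugaaugcaa
mmu-miR-181c-3p: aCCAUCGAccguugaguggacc
Of the 5p miRNAs, b and d differed over their shared length by C12U, counted from the 5′ end, and b was 1 base longer. The sequences of a and c were 1 edit apart. miR-181a-1-3p and miR-181c-3p shared the 3p seed CCAUCGA and differed by U16G and U19G. No other of the 686 BNST rows or 253 blood rows with a RefSeq mature sequence carried the 5p seed ACAUUCA. How the study's quantification divided reads between members this alike is not given in the sources used here.

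The 6 hairpins lie in 3 clusters (GRCm38.p6). The mature miR-181a-5p and miR-181b-5p of cluster 1 lie at chr1:137966468-137966490 and chr1:137966650-137966673, plus strand, in an intron of the noncoding gene Gm4258. Those of cluster 2 lie at chr2:38852741-38852763 and chr2:38853845-38853868, plus strand, opposite an intron of Nr6a1, a nuclear receptor gene. miR-181d-5p at chr8:84178759-84178781 and miR-181c-5p at chr8:84178924-84178945, minus strand, lie in an intron of Nanos3 on the same strand. The a and b 5p sequences are therefore each encoded at 2 sites. The BNST table names them by number, miR-181b-5p-1 and miR-181b-5p-2, although both rows stand for an identical sequence. Rows for a further copy of miR-181a-5p in BNST, for miR-181a in blood and for the remaining 3p arms were not analysed here.

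Values are the deposited log2 CPM (reads scaled to a common library size), on which a step of 1 is a 2-fold change. A difference was called when limma gave p under 0.05 and the fold was at least 1.2, the study's nominal criteria, and adjusted p-values are Benjamini-Hochberg values over all rows of the table. Libraries held 3173294 to 9404828 miRNA reads in BNST and 6916739 to 10113657 in blood. Erythroid and neuronal markers went with the labelled tissues, but lymphocyte miRNAs did not. Summed erythroid miRNAs (miR-451a, miR-144 and miR-486) stood between 2.33e+05 and 4.94e+05 CPM in blood and between 301 and 464 CPM in BNST, and all 7 neuronal marker mRNAs were present in the AGO2-bound mRNA of BNST. The 2 lymphocyte miRNAs measured went the other way, with sums of 1664 to 4983 CPM in BNST and 183 to 905 CPM in blood. Of 5 brain miRNAs, 3 were measured in BNST. Kits for small RNA libraries differed between the tissues, so these miRNA ranges are descriptive and their differences were not tested. In bulk samples, fewer cells of a type and less RNA per cell cannot be told apart.

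In the BNST, the 8 rows took 1.01 to 1.63% of all AGO2-bound miRNA reads (median 1.32%, n = 13 pools), mostly as miR-181c-5p. For miR-181a-5p only 1 numbered row was included, so these are shares of the rows and not of the whole family. Of the reads of these rows, miR-181c-5p took 66.8 to 73.5%, miR-181d-5p 17.3 to 22.4% and miR-181b-5p-2 3.86 to 6.92%. The 3p arms miR-181a-1-3p and miR-181c-3p took at most 3.14% and 2.27%. The remaining rows, miR-181b-5p-1, miR-181b-1-3p and miR-181a-5p-1, each stayed at or under 0.296%.

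The order of levels was almost fixed. The mean over pools was 13.12 ± 0.20 log2 CPM for miR-181c-5p (SD, n = 13), 11.32 ± 0.19 for miR-181d-5p and 9.38 ± 0.21 for miR-181b-5p-2, with ranges that did not touch. miR-181a-1-3p (8.42 ± 0.16) stood above miR-181c-3p (7.84 ± 0.25) in 13 of 13 pools, although their ranges overlapped. The neighbours at the bottom, miR-181b-5p-1 (4.50 ± 0.47), miR-181b-1-3p (3.29 ± 0.38) and miR-181a-5p-1, kept their order in 12 of 13 pools and overlapped in range. Mature lengths are nearly equal, so these CPM levels need no length correction, but ligation during library preparation favours some ends over others and its part in the order was not tested.

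The 5p arm of miR-181c exceeded its 3p arm 32.4- to 45.7-fold in reads. For miR-181a the deposited rows ran the other way: miR-181a-5p-1 held 0 to 50 reads in a pool, with 0 in control 2 and resilient 1, while miR-181a-1-3p held 1025 to 3248. A count of 0 allows up to 3 reads, which limits counting error only. Likewise miR-181b-5p-2 exceeded miR-181b-5p-1 by 19.4- to 42.6-fold (median 31.9) although the sequences are the same. Of 16 miRNAs with both numbered rows in the table, 2 had a ratio of row medians at least as large as that of miR-181b-5p, this one included. The 16 include miR-135a-5p and miR-7a-5p, whose lower row median was 0 reads. Their ratios are not defined, so they were not counted among the 2 and could not be placed against miR-181b-5p. The numbered rows therefore do not give the output of each hairpin, and the rows of miR-181a-5p and miR-181b-5p are read below as rows only.

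**Figure D1:**
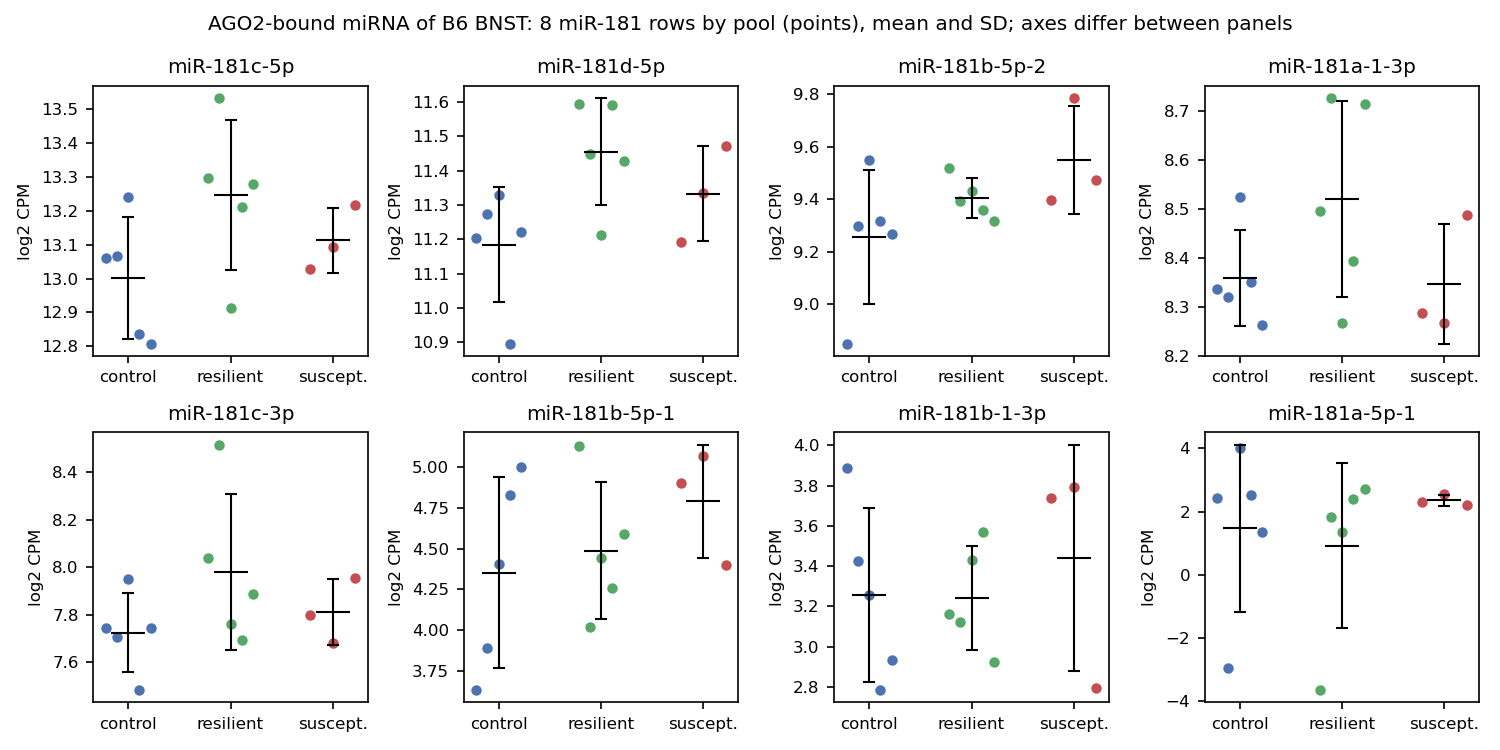
AGO2-bound miR-181 rows of B6 BNST in log2 CPM, with a point for each pool of 3 mice and the mean and SD of each group (5 control, 5 resilient and 3 susceptible pools). For miR-181d-5p the resilient pools lie between 11.21 and 11.59 and the controls between 10.90 and 11.33, and groups overlap in all 8 panels.

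Defeat moved the family's AGO2-bound levels little, and 0 of 8 members had an adjusted p under 0.05 against controls (0.254% of all miRNAs in resilient and 0% in susceptible pools). miR-181d-5p was nominally higher in resilient mice than in controls, miR-181b-5p-2 was nominally higher in susceptible mice, and no member was called between susceptible and resilient mice.

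miR-181d-5p stood at 11.20, 11.27, 11.33, 10.90 and 11.22 log2 CPM in the control pools, at 11.59, 11.45, 11.21, 11.59 and 11.43 in the resilient pools and at 11.19, 11.33 and 11.47 in the susceptible pools. Resilient pools lay mostly above the controls, but the lowest resilient pool fell inside the control range. Resilient pools were higher by 0.27 on the log2 scale (SE 0.10, 95% interval 0.06 to 0.49, limma p = 0.0161, adjusted p = 0.303, exact two-sided permutation p = 0.0317). This was 1 of 8 members called, in a comparison that called 9.52% of all 788 miRNAs. The fold of 1.21 lay at the minimum, and the call was lost without control 4 (0.20) and without resilient 1 (0.24) or resilient 4 (0.24).

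miR-181c-5p, its neighbour on chromosome 8, stood at 13.06, 13.07, 13.24, 12.84 and 12.81 log2 CPM in control pools, at 13.30, 13.53, 12.91, 13.21 and 13.28 in resilient pools and at 13.03, 13.09 and 13.22 in susceptible pools. The difference between resilient and control pools was 0.24 (SE 0.11, limma p = 0.0423, adjusted p = 0.383, exact permutation p = 0.0952), with a fold of 1.18 that lay under the minimum. It was called when libraries were scaled by total reads (0.29), after quantile normalization (0.29), and without control 3 (0.30) or resilient 3 (0.33). miR-181c-3p differed by 0.25 (SE 0.14, adjusted p = 0.499) and miR-181a-1-3p by 0.16 (SE 0.11, adjusted p = 0.606). The median over all miRNAs in this comparison was -0.01. The markers miR-126a-3p and miR-126a-5p, of endothelium and platelets, were called higher in the same comparison (0.32 and 0.41), as were 2 of 5 erythroid miRNAs, miR-451a (0.39) and miR-144-5p (0.51). Summed miR-126a stood at 3643 to 4951 CPM in control and at 4293 to 6333 CPM in resilient pools, summed erythroid miRNAs at 301 to 357 and 325 to 464 CPM, with no marker at 0, and their part in the result was not tested.

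miR-181b-5p-2 stood at 8.85, 9.30, 9.55, 9.32 and 9.27 log2 CPM in control pools, at 9.52, 9.39, 9.43, 9.36 and 9.32 in resilient pools and at 9.40, 9.79 and 9.47 in susceptible pools. Control 1 was the lowest and susceptible 2 the highest of the 13. Susceptible pools were higher than controls by 0.30 (SE 0.14, 95% interval 0.01 to 0.58, limma p = 0.0430, adjusted p = 0.884), but the exact permutation test gave p = 0.143, where 3 against 5 pools allow no p below 0.0179. It was the only one of the 8 members called, where 4.70% of all miRNAs were. The call was lost without control 1 (0.19) and without susceptible 2 (0.18), and also without control 2 (0.31), control 5 (0.30) or resilient 4 (0.30). The row of the same sequence, miR-181b-5p-1, differed by 0.44 (SE 0.32, adjusted p = 0.944) at 47 to 220 reads a pool.

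Between susceptible and resilient pools, 0 of 8 members were called by limma, where 3.93% of all miRNAs were, and 0 lay at an unadjusted p under 0.05, where 4.57% of all miRNAs did. The intervals still allowed sizeable differences: -0.41 to 0.14 for miR-181c-5p, -0.37 to 0.13 for miR-181d-5p and -0.14 to 0.43 for miR-181b-5p-2.

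In the blood, the 3 rows, none of them of miR-181a, took 0.0414 to 0.0679% of miRNA reads (23 mice). Their make-up differed from that of the BNST rows. miR-181c-5p averaged 8.16 ± 0.28 log2 CPM (SD, n = 23) and miR-181d-5p 7.89 ± 0.24. Their ranges overlapped, and c exceeded d in 21 of 23 mice. miR-181b-5p followed at 1.48 ± 0.49, only 11 to 45 reads a mouse, and d exceeded it in 23 of 23 mice. Kits for small RNA libraries differed between the tissues, so levels were not tested between them.

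**Figure D2:**
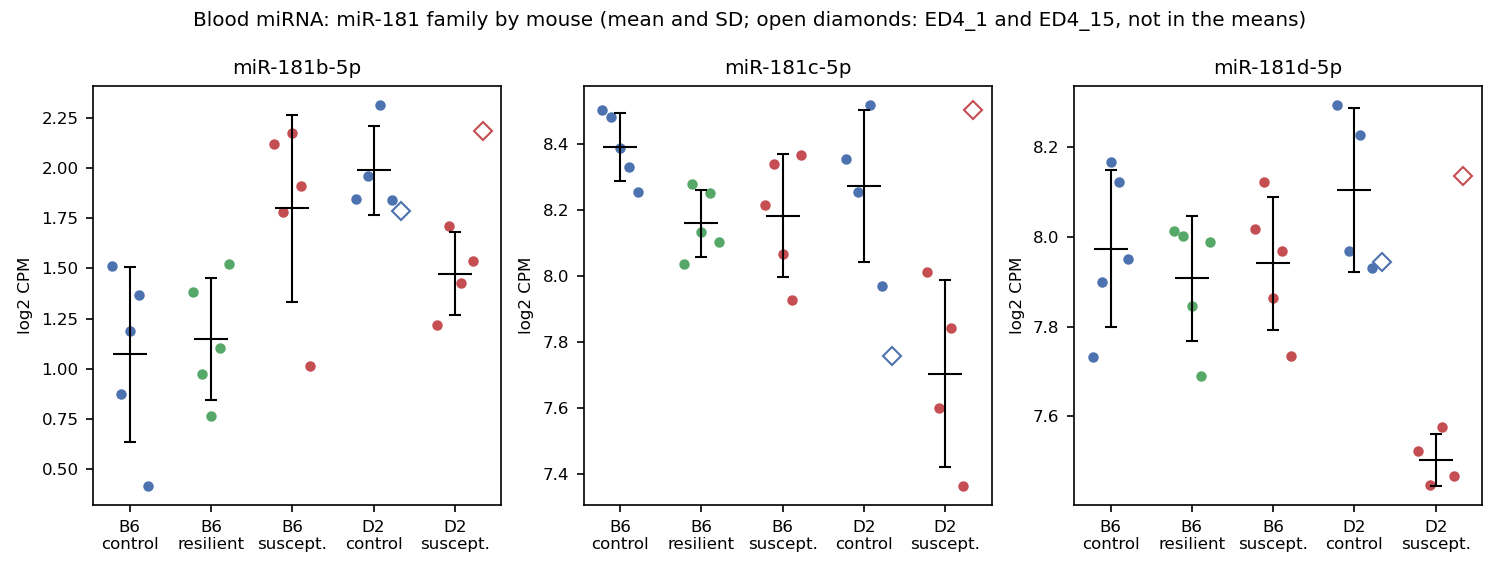
Blood miR-181 rows in log2 CPM, with a point for each mouse and the mean and SD of each group (5 mice in B6 groups, 4 in D2 groups). Open diamonds mark ED4_1 and ED4_15 in their labelled groups, left out of the means. All 4 D2 susceptible mice lie at or under 7.58 for miR-181d-5p, below all 4 D2 controls, while the open diamond of ED4_15 lies at 8.13.

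In the blood of D2 mice, miR-181d-5p was lower after defeat and was the only member with an adjusted p under 0.05, which did not hold with the 2 ambiguous mice in their labelled groups. miR-181c-5p was nominally lower, a call that was lost with the labelled groups. In B6 mice, miR-181b-5p was nominally higher in susceptible animals. The tests of the difference between strains were nominal for miR-181b-5p and miR-181d-5p and passed no adjustment.

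miR-181d-5p stood at 8.29, 7.97, 8.23 and 7.93 log2 CPM in D2 controls (1 of 4 from the ED3 series of mouse names, 3 of 4 from ED6) and at 7.52, 7.45, 7.58 and 7.47 in D2 susceptible mice. The groups did not overlap, and the susceptible mice lay close together. The difference was -0.60 (SE 0.13, 95% interval -0.87 to -0.33, limma p = 1.4e-04, adjusted p = 0.0418), which ranked 1 among the 299 miRNAs, and the exact permutation p was 0.0286, the smallest that 4 against 4 allow. It was 1 of 2 members called, both lower, where 12.4% of the 299 miRNAs were called, 0.334% had an adjusted p under 0.05 and 4.35% had groups that did not overlap. With ED4_1 (7.94) and ED4_15 (8.13) in their labelled groups the difference was -0.44 (adjusted p = 0.315), and in the groups of their column names -0.52 (adjusted p = 0.0342). It stayed called under all 34 alternatives run, with adjusted p-values from 0.0121 to 0.512, of which 10 were under 0.05.

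miR-181c-5p stood at 8.35, 8.25, 8.52 and 7.97 log2 CPM in D2 controls and at 8.01, 7.60, 7.84 and 7.36 in D2 susceptible mice. The groups overlapped by 1 mouse a side. The difference was -0.57 (SE 0.15, 95% interval -0.88 to -0.26, limma p = 8.6e-04, adjusted p = 0.0858, exact permutation p = 0.0571). With both mice added it was -0.31 (adjusted p = 0.596), not called, by the labels, and -0.60 (adjusted p = 0.0306) by the column names. The result on miR-181c-5p therefore turned on the group of 2 mice.

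miR-181b-5p stood at 1.84, 1.96, 2.31 and 1.84 log2 CPM in D2 controls and at 1.22, 1.71, 1.43 and 1.54 in D2 susceptible mice. The groups did not overlap, but limma did not call the difference of -0.52 (SE 0.28, 95% interval -1.09 to 0.06, p = 0.0781, adjusted p = 0.477, exact permutation p = 0.0286, the smallest allowed). With both mice added it was -0.33 (adjusted p = 0.720) by the labels and -0.49 (adjusted p = 0.364) by the column names. After quantile normalization it was called (-0.63, adjusted p = 0.408). Sums over 4 mice were 132 reads in controls, 4.13 CPM of all reads (Poisson 95% interval 3.46 to 4.90, counting error only), and 102 reads in susceptible mice, 3.16 CPM (2.58 to 3.84). Those intervals overlapped.

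In the same D2 comparison, 2 of 4 erythroid miRNAs were called higher, miR-486a-5p by 0.51 and miR-486b-5p by 0.62, and the list summed to 2.44e+05 to 4.64e+05 CPM in controls and 2.33e+05 to 3.55e+05 in susceptible mice. Of the 7 platelet mRNAs 0 were called, with a median difference of -0.75 and sums of 6901 to 13435 CPM in controls and 2356 to 7668 CPM in susceptible mice. Of 10 B cell mRNAs 2 were called higher (median 0.47). No marker of these lists was at 0, and their part in the miR-181 results was not tested. Susceptible mice came from the ED3, ED4 and ED6 series and controls from ED3 and ED6. With the series as a term, the differences were -0.65 for miR-181d-5p (adjusted p = 0.0647) and -0.67 for miR-181c-5p (adjusted p = 0.0647). The ED4 series held no control, so in that fit only ED3_4 and ED6_5 of the susceptible mice informed the difference. Scaling libraries by total reads moved the median of all blood miRNAs by 0.11 in this comparison, by 0.14 between the strains' controls and by -0.12 in the strain-by-defeat difference, quantile normalization by 0.10 between the controls, and no called member changed direction under either.

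In B6 mice, miR-181b-5p stood at 1.51, 0.87, 1.19, 1.37 and 0.42 log2 CPM in controls, at 1.38, 0.97, 0.77, 1.1 and 1.52 in resilient mice and at 2.12, 1.78, 2.18, 1.91 and 1.02 in susceptible mice. Of the 5 susceptible mice, 4 lay above every control and every resilient mouse, and 1 lay among them. Susceptible mice were higher than controls by 0.73 (SE 0.25, 95% interval 0.21 to 1.24, limma p = 0.00788, adjusted p = 0.686, exact permutation p = 0.0397) and higher than resilient mice by 0.65 (SE 0.25, limma p = 0.0159, adjusted p = 0.992, exact permutation p = 0.0397). It was 1 of 3 members called in each, where 3.68% and 3.01% of all miRNAs were. These comparisons share the susceptible mice. In reads, the sums were 81, 88 and 150 over 5 mice each, or 1.99 (Poisson 95% interval 1.58 to 2.47), 2.13 (1.71 to 2.63) and 3.45 (2.92 to 4.05) CPM. The interval of susceptible mice lay above those of both other groups, but these intervals cover counting error only and leave out the spread between mice.

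Between resilient and control B6 mice, 0 of 3 members were called by limma or lay at an unadjusted p under 0.05, where 4.68% of all miRNAs were and did. miR-181b-5p differed by 0.08 (95% interval -0.44 to 0.59). miR-181c-5p stood at 8.50, 8.48, 8.39, 8.33 and 8.25 log2 CPM in controls, at 8.04, 8.28, 8.13, 8.25 and 8.10 in resilient and at 8.22, 8.34, 8.07, 7.93 and 8.37 in susceptible mice. The resilient difference was -0.23 (SE 0.13, limma p = 0.0953, exact permutation p = 0.0159) and the susceptible one -0.21 (SE 0.13, limma p = 0.129). miR-181d-5p differed by -0.07 in resilient (95% interval -0.31 to 0.18) and by -0.03 in susceptible mice (-0.28 to 0.21).

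**Figure D3:**
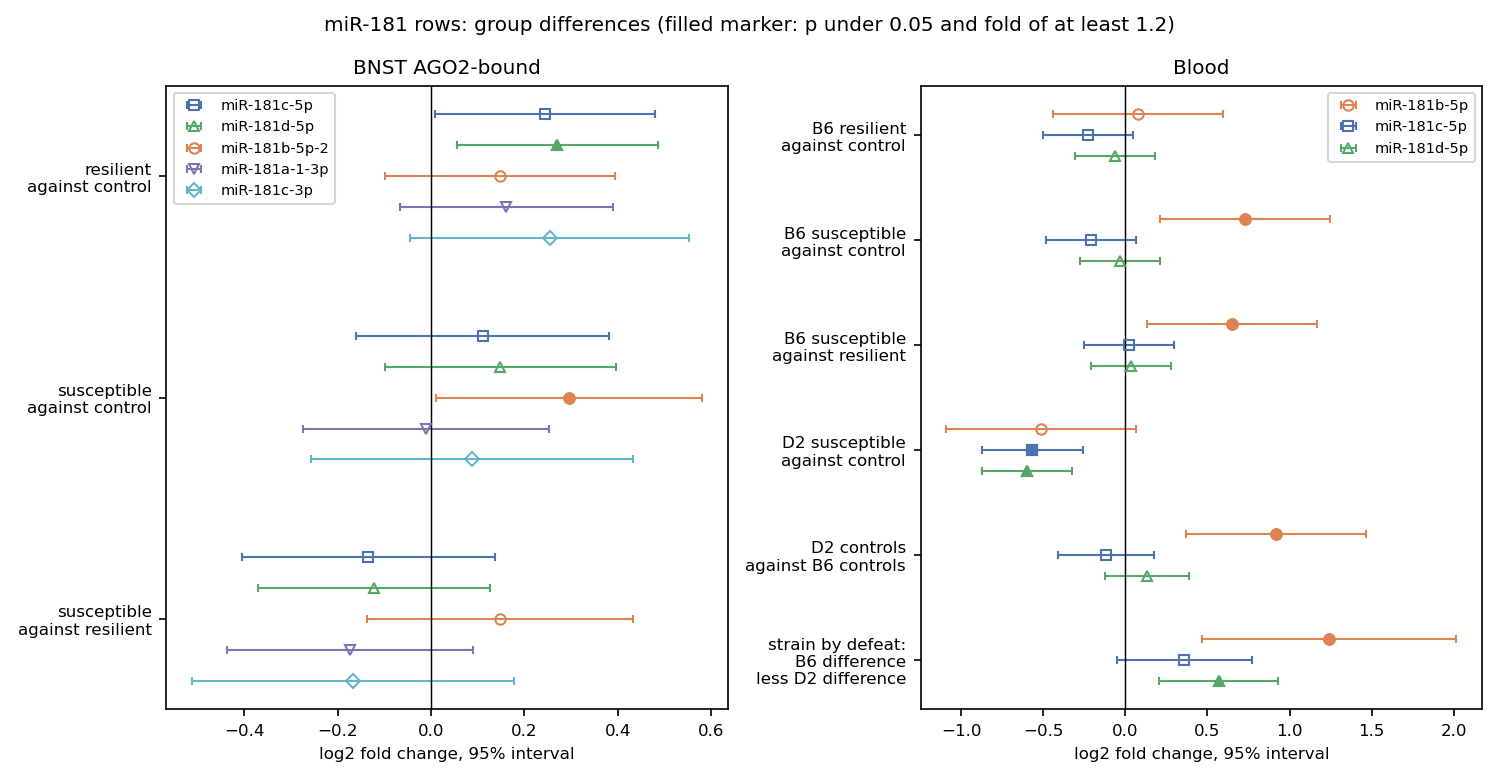
Group differences of miR-181 rows with 95% limma intervals, on the log2 scale, for BNST (left, 5 most abundant rows) and blood (right). Filled markers were called. In blood, the c and d rows are filled at -0.57 and -0.60 in D2 mice, and the b row at 0.73 and 0.65 in the B6 susceptible comparisons.

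Between the strains, miR-181b-5p was higher in D2 controls than in B6 controls by 0.92 (SE 0.26, 95% interval 0.37 to 1.46, limma p = 0.00216, adjusted p = 0.0169, exact permutation p = 0.0159), and the groups did not overlap. Among all miRNAs 27.8% were called, 17.1% had an adjusted p under 0.05 and 18.4% did not overlap, so strain differences of this kind were common. Adding ED4_1 and ED4_15 gave 0.88 by the labels and 0.96 by the column names. miR-181c-5p (-0.12, SE 0.14) and miR-181d-5p (0.13, SE 0.12) were not called. Mice of the 2 strains carry different series of names throughout, so strain and series cannot be told apart.

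The B6 difference between susceptible and control mice exceeded the D2 difference by 1.24 for miR-181b-5p (SE 0.37, adjusted p = 0.366), by 0.57 for miR-181d-5p (SE 0.18, adjusted p = 0.366) and by 0.36 for miR-181c-5p (SE 0.20, adjusted p = 0.740). The first 2 of these 3 were called, where 5.69% of all miRNAs were. With ED4_1 and ED4_15 they were 1.06, 0.41 and 0.10 by the labels and 1.22, 0.49 and 0.40 by the column names, where miR-181c-5p was called too. With the series as a term they were 1.28, 0.62 and 0.46, all called, but the D2 side of that fit rested on the ED3 and ED6 mice only. After quantile normalization miR-181d-5p was no longer called (0.36, adjusted p = 0.847).

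**Figure D4:**
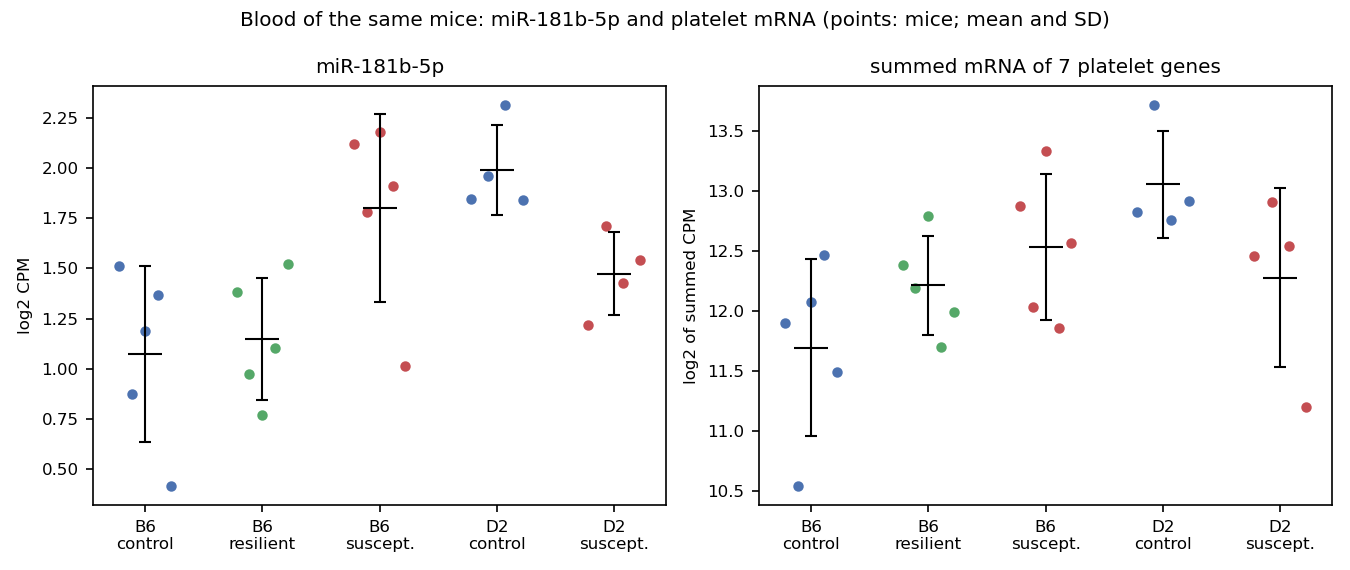
miR-181b-5p (left, log2 CPM) and the summed mRNA of 7 platelet genes (right, log2 of summed CPM) in blood of the same mice, with group means and SD (n = 5 in B6, 4 in D2). In both panels B6 controls have the lowest mean and D2 controls the highest.

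Platelet transcripts were called higher in 3 of the 4 comparisons that called miR-181b-5p higher. Those 3 share the B6 control mice, whose mean was the lowest for both, so they are not independent. Of 7 platelet mRNAs, 6 were called higher in B6 susceptible than in control mice (median 0.87), such as the chemokine Ppbp (0.89) and the integrin Itga2b (0.90), while the chemokine Pf4 differed by 0.65 and was not called. The same list had 5 called higher in D2 than in B6 controls (median 1.32) and 7 in the strain-by-defeat difference (median 1.63). Between B6 susceptible and resilient mice, where miR-181b-5p was called, 0 of 7 were called (median 0.33), and between B6 resilient and control mice, where miR-181b-5p differed by 0.08, 0 of 7 were called with a median of 0.55. The sums ran from 1490 to 5669 CPM in B6 controls, 3333 to 7080 in B6 resilient and 3701 to 10299 in B6 susceptible mice, and no platelet gene was at 0. miR-223-5p, the 1 myeloid marker miRNA measured in blood, was also called higher in B6 susceptible than in control mice (0.49), in D2 controls (0.80) and in the strain-by-defeat difference (0.87). The 1 miR-126a arm measured in blood, a marker of platelets and endothelium, differed by -0.15, 0.13 and 0.40 in these 3 comparisons and was not called. Of 9 neutrophil mRNAs, 0, 2 and 0 were called higher in them, in that order. B cell mRNAs were lower in D2 than in B6 controls for 10 of 10 genes (median -0.77) and in the strain-by-defeat difference for 6 of 10. Of 11 T cell mRNAs 2 were called higher in B6 susceptible than in resilient mice (median 0.26), 5 higher and 1 lower in D2 than in B6 controls (median 0.43), and 0 in B6 susceptible against control mice and in the strain-by-defeat difference. T cell sums ran from 275 to 370 CPM in B6 controls, 192 to 401 in B6 resilient, 246 to 415 in B6 susceptible mice and 343 to 474 in D2 controls, with no gene at 0. Their part in the miR-181 results was not tested.

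Members of a cluster did not always vary together. As a description, deviations from group means of miR-181c-5p and miR-181d-5p correlated with r = 0.64 over 13 BNST pools and r = 0.13 over 23 blood mice, and those of miR-181c-5p and miR-181a-1-3p, from different chromosomes, with r = 0.81 in BNST. These values share a library, its depth and its scaling. Outside the family the closest in BNST were miR-125b-2-3p (r = 0.90), miR-582-3p (0.89) and miR-219a-5p-2 (0.85) for miR-181c-5p, and miR-499-5p (0.91), miR-758-3p (0.87) and miR-7a-2-3p (0.79) for miR-181d-5p. In blood they were miR-18a-5p (0.84), miR-3068-5p (0.77) and miR-140-5p (0.76) for miR-181c-5p, miR-127-5p (0.70), miR-143-3p (0.68) and miR-653-5p (0.68) for miR-181d-5p, and miR-329-5p (0.64), miR-299a-5p (0.62) and miR-362-5p (0.57) for miR-181b-5p. For the low BNST rows they were miR-16-5p-2 (0.81), miR-361-3p (0.78) and miR-33-3p (0.77) for miR-181b-5p-2, miR-6953-3p (0.83), miR-380-5p (0.82) and miR-6942-5p (0.77) for miR-181b-5p-1, and miR-15b-3p (0.86), miR-6905-5p (0.76) and miR-6240 (0.72) for miR-181a-5p-1.

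Genes known as miR-181 targets were followed in the AGO2-bound mRNA of the same BNST groups (5 control, 5 resilient and 4 susceptible pools), where a transcript's level reflects both its amount and its binding by AGO2. Of 37 reported targets 30 were measured, and in susceptible pools 5 of them were lower and 3 higher than in controls. Resilient pools had 2 lower and 1 higher. Of all 16587 genes, 18.9% were called in the susceptible comparison (9.28% lower and 9.65% higher) and 17.7% in the resilient one (9.04% lower and 8.65% higher), so the targets' 8 and 3 of 30 stood on either side of the background. The median over the targets was -0.07 (all genes -0.01) in susceptible and -0.05 (all genes -0.02) in resilient pools.

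Sites in the 6 called BNST targets that hold one are given, 1 site each, on the transcript's strand of GRCm38, 5′ to 3′. Capitals mark the 7 bases that pair with the seed, TGAATGT, or 8 bases where an A follows. That A is not part of the pairing with the seed. Only the transcript's strand was searched, in the longest annotated 3′ UTR of each gene, and the 8-base form contains the 7-base one. A site without the base opposite base 8 of the miRNA was not counted, so a gene without a match may still hold such a site.
Nlk, chr11:78567714-78567720, minus: gacttgaaactTGAATGTcccttccaact
Timp3, chr10:86349416-86349423, plus: tttatattccgTGAATGTAtattgtcttgt
Xiap, chrX:42105020-42105026, plus: cttgctctaatTGAATGTgtgatgggagc
Il1a, chr2:129300580-129300586, minus: gtaattctaaaTGAATGTttaccctcttt
Atm, chr9:53439249-53439256, minus: cctcattagaaTGAATGTAggtagggctgg
Sirt1, chr10:63320562-63320568, minus: atgtcaaaaaaTGAATGTttacttgtgaa
The coordinates are those of the bases in capitals, in each 3′ UTR. A match did not go with one direction: Nlk, Timp3 and Xiap were called lower and Il1a, Atm and Sirt1 higher, while Dusp6, Prdx3 and Vsnl1, called lower in susceptible pools, held no match in the 3′ UTR searched. Among the 30 reported targets measured in BNST, called or not, 16 held the 7-base form. Of all genes with an annotated 3′ UTR, 19.1% held the 7-base and 6.25% the 8-base form.

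Nlk, a kinase that restrains Wnt signalling, stood at 7.23 ± 0.07 log2 CPM in control (SD, n = 5), 6.93 ± 0.16 in resilient (n = 5) and 6.69 ± 0.29 in susceptible pools (n = 4). It was lower by 0.54 in susceptible pools (log2 difference -0.54, SE 0.12, adjusted p = 0.0226) and by 0.30 in resilient pools (-0.30, SE 0.11, adjusted p = 0.149). No other target had an adjusted p under 0.05 in either comparison, where 4.02% of all genes did in susceptible and 1.95% in resilient pools. Dusp6, a phosphatase that switches off ERK, differed by -0.49 in susceptible pools (adjusted p = 0.0896), Timp3, an inhibitor of matrix proteases, by -0.50 (adjusted p = 0.133), Prdx3, a mitochondrial peroxidase, by -0.28 (adjusted p = 0.15) and Vsnl1, a neuronal calcium sensor, by -0.34 (adjusted p = 0.233). In the other direction stood Sirt1, a deacetylase (0.27), Atm, a DNA damage kinase (0.29), and Il1a, a cytokine (0.70). Il1a was also higher in resilient pools (0.73), in which Xiap, a caspase inhibitor, was lower (-0.32). Between susceptible and resilient pools 0 of 30 targets were called by limma, where 2.14% of all genes were, and 0 lay at an unadjusted p under 0.05, where 2.42% did.

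Gria2, Bcl2 and mt-Co1, also known as targets, were not called in BNST. Gria2, which encodes GluA2, stood at 9.59 ± 0.14 log2 CPM in controls and differed by -0.07 in susceptible pools (SE 0.11). Bcl2, an inhibitor of apoptosis, differed by 0.01 (SE 0.14) and mt-Co1, a mitochondrial respiratory subunit, by 0.03 (SE 0.14). Of 7 neuron markers 4 were called lower in susceptible pools (median -0.38, sums of 2032 to 2250 CPM in control and 1499 to 1984 CPM in susceptible pools) and 3 of 3 choroid plexus markers were too (median -2.80, sums of 6.84 to 142 and 4.18 to 41.3 CPM). No marker of the 2 lists was at 0, and their part in the target results was not tested.

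The shares of genes called lower were close with and without a seed match once 3′ UTR length was held, and no difference between shares was tested. In susceptible pools 12.2% of 2648 genes with a 7-base match were called lower and 6.12% higher, against 9.74% and 10.6% of 11218 genes without one. Median 3′ UTR lengths were 2508 and 1023 bases. Within 3′ UTRs of 1500 to 4000 bases, a class added after the first values were seen, 11.6% and 12.0% were called lower and 5.26% and 6.40% higher. In resilient pools the shares lower were 11.7% with and 9.70% without a match, and 12.2% and 11.5% within that length class. With an 8-base match 11.9% were lower in susceptible and 10.3% in resilient pools. Between susceptible and resilient pools 0.982% with and 0.918% without a 7-base match were called lower.

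**Figure D5:**
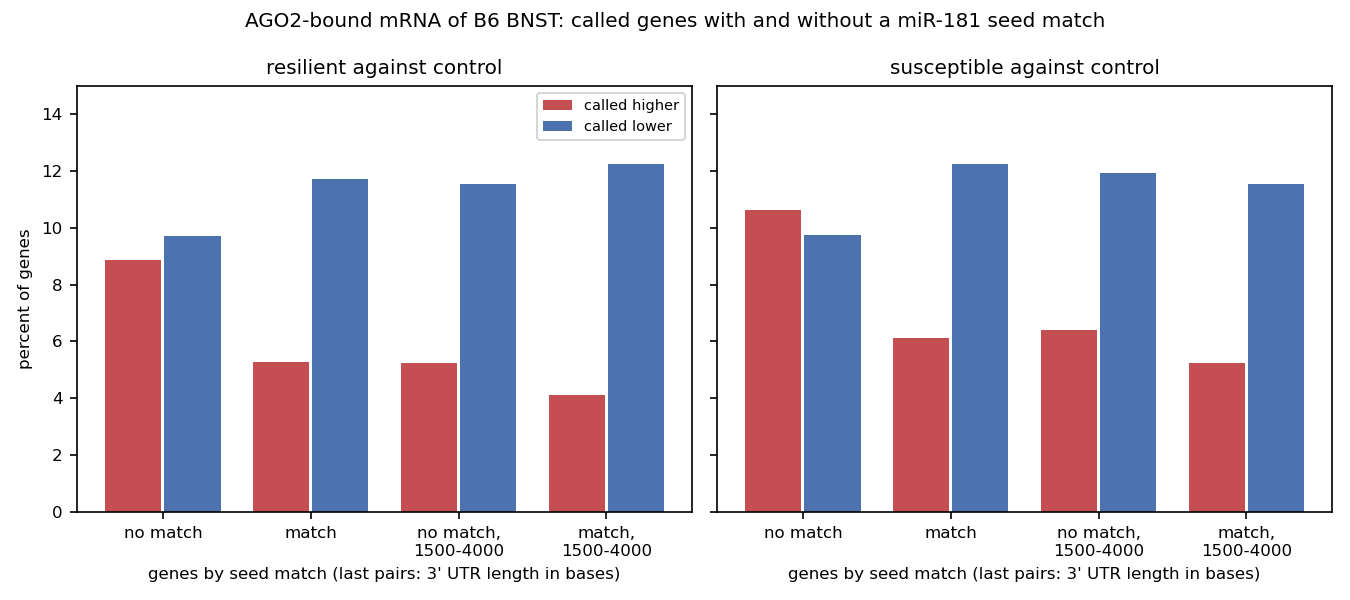
Percent of AGO2-bound mRNAs called higher (red) or lower (blue) in B6 BNST, by the presence of a 7-base miR-181 seed match in the 3′ UTR, for all lengths and for 3′ UTRs of 1500 to 4000 bases. In susceptible pools (right) the share called lower is 12.2% with and 9.74% without a match, and 11.6% and 12.0% within the length class.

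Of the genes that overlap the hairpins, Nr6a1 was called higher in resilient (0.33, adjusted p = 0.116) and susceptible BNST pools (0.28, adjusted p = 0.183). Its miRNAs lie on the opposite strand. Gm4258 and A430106G13Rik, around miR-181a-1 and miR-181b-1, were low (1.21 ± 0.33 and 0.06 ± 0.66 log2 CPM in controls) and not called.

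In blood mRNA 27 of the 37 reported targets were measured. The T cell activation marker Cd69 was lower in B6 susceptible mice than in controls (-0.64, SE 0.29, adjusted p = 0.974) and Ptpn11, the phosphatase SHP-2, was higher (0.55, SE 0.25, adjusted p = 0.974). They were 2 of 27, or 1 in each direction, in a comparison that called 4.69% of 13084 genes. In D2 mice 0 of 27 were called (3.97% of all genes), nor were any between resilient and control (2.08%) or between susceptible and resilient B6 mice (2.03%). At an unadjusted p under 0.05 lay 0 targets in D2 mice (4.04% of all genes), 0 in resilient against control mice (2.16%) and 1 in susceptible against resilient mice (2.13%), Sirt1 (-0.26), just under the minimum fold.

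Between the strains' controls 7 of 27 targets were called, where 28.3% of all genes were. Bcl2l11, a promoter of apoptosis, was higher in D2 by 0.85 (adjusted p = 2.5e-04), Timp3 by 1.07 (adjusted p = 0.0404), and Prdx3 was lower (-0.98, adjusted p = 0.00288). Ptpn11 (0.68), Dusp6 (0.66) and Nlk (0.64) were higher and Cd69 lower (-0.85) nominally. The strain-by-defeat difference called 3 of 27, Ptpn11 (1.05), Nlk (0.94) and Cd69 (-0.93), all with adjusted p-values of 0.413 or above, among 8.18% of all genes. With ED4_1 and ED4_15 added, the counts of targets called were 0 in D2 mice, 5 between controls and 1 in the strain-by-defeat difference by the labels, and 2, 8 and 3 by the column names. Without those mice, Bcl2 was not called in any blood comparison.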

How the data were processed

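Small RNA and mRNA sequencing tables of BNST AGO2 immunoprecipitates and of blood were used. The authors aligned small RNA reads with miRDeep2 and Bowtie 1.1.1 to miRBase and mRNA reads to GRCm38, counted mRNA with HTSeq, kept features with at least 1 CPM in 3 (BNST) or 6 (blood) samples, and deposited log2 CPM values from voom. All 577037 values went back to whole reads (tolerance 0.0001 reads, with 0.5 reads added by the authors), so no batch correction is part of them. The paper adjusted its BNST AGO2-bound mRNA data for experimental cohort and the miRNA data for detected surrogate variables. Neither was a term in the fits here, and the part of cohort in the BNST results was not tested. The reads served for depth and rescaling only. Limma 3.58.1 (R 4.3.3) was fitted to all rows and groups of each table with a mean-variance trend. Exact permutation tests and Poisson intervals used SciPy 1.17.1 (Python 3.11.15). Counting intervals cover counting error only, and p-values measure the spread between the libraries given. Blood mice ED4_1 and ED4_15 were left out, and added in both ways as alternatives. Named were all members, the 3 most similar miRNAs of each 5p row (Pearson r of deviations from group means), marker lists, reported targets and overlapping genes that were called, and further targets whatever their values (Gria2, Vsnl1, Bcl2 and mt-Co1, with 1 other not reported here). Members and lists were chosen with earlier results of these data known. On simulated blood data (59 of 299 miRNAs changed 2-fold, D2 comparison) 76.3% of the changed miRNAs were called. The simulated spread was the lower quartile of the fitted residual SDs, and the D2 differences of the members were under 2-fold. That rate can therefore exceed the one in the real data. Alternatives were weights, scaling, trend, low-value filters, pseudocount, groups fitted, mouse series and leaving out each library.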

Additional observations from a re-analysis of the deposited data

Results flagged for a closer look

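The lowest control pool for miR-181d-5p in BNST, control 4 at 10.90 log2 CPM, stood apart from the next pool at 11.20, and for miR-181a-5p-1 resilient 1 stood at -3.66, a count of 0 reads, with the next pool at 1.36. Of 31 member and group combinations, 2 held such a sample, and chance gives about 1 in 20. Without control 4 the resilient difference of miR-181d-5p was 0.20 and not called.

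The response to defeat differed between the strains in blood for miR-181b-5p, by 1.24 on the log2 scale, and for miR-181d-5p, by 0.57, both by a test of the difference itself at nominal p (limma, adjusted p = 0.366 for both, 5 B6 and 4 D2 mice a group).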

How the results depend on the processing

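Over 42 member results and 1119 alternative values, 1095 kept their side of the threshold, 12 gained and 12 lost the call, and 0 reversed a call. For 11 member results, 0 of them called, the alternatives lay on both sides of 0, from -1.65 to 0.60 for miR-181a-5p-1 between resilient and control pools. In BNST, the count of members called rose from 1 to 2 with total reads and to 3 with quantile normalization (resilient against control), and fell from 1 to 0 without the trend or with only the compared groups (susceptible against control). In blood, a minimum mean of 5 log2 CPM removed miR-181b-5p and left 0 members called in both B6 susceptible comparisons and between the strains' controls, and 1 in the strain-by-defeat difference, as did quantile normalization. With the labels' groups 1 member was called in D2 mice. Leaving out each library gave 0 to 2, 0 to 1 and 0 to 0 members called in the 3 BNST comparisons, and 0 to 0, 1 to 1, 1 to 1, 2 to 2, 1 to 1 and 2 to 3 in the 6 blood comparisons, in the order resilient against control, susceptible against control, susceptible against resilient, D2, controls, strain by defeat.

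Reported targets called in BNST resilient pools rose from 3 to 6 with sample weights. In blood they rose from 0 to 1 in B6 resilient mice (voom weights, sample weights or total reads), fell from 2 to 0 in B6 susceptible mice (sample weights, total reads or only the compared groups), rose from 0 to 1 against resilient mice with the series as a term, rose from 0 in D2 mice to 3 (sample weights), 1 (quantile), 2 (series) and 2 (column names), and fell from 3 to 1 in the strain-by-defeat difference (labels). Leaving out each library gave 2 to 6, 4 to 10 and 0 to 1 in BNST, and 0 to 1, 0 to 4, 0 to 2, 0 to 2, 5 to 10 and 2 to 4 in blood. The causes were not tested.

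Libraries of the same BNST replicate number showed little correlation of their deviations from group means. It exceeded 0.1 in 0 of 11 miRNA pairs (-0.10 to 0.10) and in 2 of 13 mRNA pairs (-0.17 to 0.14). With so few libraries a group, these values cannot exclude a pairing. With the replicate block, 1 member each was called in the same comparisons, and miR-181d-5p differed by 0.27. The rows of fewest reads were miR-181b-5p in blood (11 to 45 reads) and miR-181a-5p-1 in BNST (0 to 50 reads), and the part of counting error in their spread was not tested.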
